A study of Drosophila melanogaster with 36 samples.

Results

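The Bearded family of Drosophila melanogaster is a group of small proteins that bind Neuralized, the ubiquitin ligase that readies the Notch ligand Delta for signalling. The members were taken as every probe set that the platform annotation gives to Brd, Tom, BobA, Ocho, E(spl)malpha-BFM, E(spl)m4-BFM, E(spl)m2-BFM or E(spl)m6-BFM. That gave 9 probe sets for 8 genes, of 18769 non-control probe sets on the array. BobA had 2 probe sets, of which 1 is also annotated to its neighbour CG13465, so its signal cannot be divided between the 2 genes. The annotation alone decided which probe sets belong, but the family itself was chosen with earlier results of these data known.

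Whole embryos of 9 isogenic lines, stocks inbred until their flies carry nearly the same genome, were collected at 8 h and at 5 h and measured on one-colour Affymetrix arrays. The lines are named in the array titles as Drosophila_17, Drosophila_23, Drosophila_58, Drosophila_75, Drosophila_83, Drosophila_89, Drosophila_128, Drosophila_134 and Drosophila_145, with no treatment or engineered allele stated. There were 18 arrays at 8 h and 18 at 5 h, 2 RNA samples for each line and time. For 1 of the 5 h arrays the title gives no line. The comparisons therefore used 35 arrays, with 1 array for Drosophila_17 at 5 h. Whether duplicate RNA samples stem from different collections of embryos is not stated, so the p-values of line tests measure variation between duplicates that could be purely technical.

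Notch signalling passes between touching cells: Delta on one cell activates Notch on the next only after Neuralized marks Delta for endocytosis. Bearded proteins occupy Neuralized and thereby limit Delta activity. In the early fly embryo they are transcribed in the ectoderm and repressed in the mesoderm by Snail, which lets Delta of mesoderm cells signal to the neighbouring mesectoderm row. The genes lie in the Bearded and Enhancer of split complexes, and those of the Enhancer of split complex are themselves known targets of Notch signalling, beside the bHLH repressor genes of that complex.

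In the RefSeq gene order of Release 6 plus ISO1 MT, the first complex lies on chromosome arm 3L, with CG13465, BobA, a long noncoding RNA gene, Tom, Brd and Ocho as neighbours in that order. On arm 3R, E(spl)m4-BFM stands between E(spl)m3-HLH and E(spl)m5-HLH. E(spl)m6-BFM stands between E(spl)m5-HLH and E(spl)m7-HLH.

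Array brightness differed widely before any scaling: the total deposited intensity ranged from 46261 to 309710, and between 3152 and 8128 probe sets lay above the limit set by negative controls. Line Drosophila_75 had totals of 212329 to 266525 and line Drosophila_134 had 46261 to 110030. Arrays were therefore quantile normalised, and all intensities below are on that scale. Differences are on the log2(intensity + 16) scale, which understates the change of dim probe sets. The 2 arrays of a line and time correlated with r of 0.916 to 0.979.

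The first comparison asks how transcript levels of the family differ between 8 h and 5 h, with the 9 lines as replicates. Transcripts of each family gene except E(spl)m6-BFM were higher at 8 h. The ratio of mean intensities was 2.42 to 3.16 for Tom, Brd, BobA, Ocho and E(spl)m4-BFM, which exceeded the negative-control limit on at least 15 of 17 arrays at 5 h. E(spl)malpha-BFM (5.44) and E(spl)m2-BFM (3.67) exceeded it on 10 and 6 of those arrays, so their ratios rest on 5 h values partly at background. Of the 9 probe sets 8 were called higher and 0 lower by limma at an adjusted p of 0.05. Of all probe sets 3.85% were called higher and 3.67% lower, and of the 6179 probe sets measured above the negative controls 9.69% were called higher. Without any test, 7 of the 9 were higher in 9 of 9 lines, as were 2.42% of all probe sets. The median change over the 8 genes was 0.84, against 0.002 over all probe sets. The arrays of the 8 h and 5 h groups overlapped for each member.

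Among the genes of the Bearded complex, Tom (twin of m4) ranged from 39.2 to 530.7 with a median of 175.8 over 18 arrays at 8 h, against 6.51 to 167.1 with a median of 80.5 over 17 arrays at 5 h. At 8 h 10 of 18 arrays exceeded every 5 h array. Its change was 1.25 ± 0.16 (SE, 9 lines; limma adjusted p = 5.7e-05), with 9 of 9 lines higher at 8 h.

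Brd, the founding member, whose gain-of-function alleles change the number of sensory bristles, had 11.6 to 229.3 (median 87.4) at 8 h and 3.3 to 87.4 (median 31) at 5 h. The mean was 98.04 ± 59.06 at 8 h and 32.4 ± 18.4 at 5 h (SD, n = 9 lines), a change of 1.15 ± 0.16 (SE; limma adjusted p = 0.00011). All 9 lines were higher at 8 h, and the spread between lines was wider at 8 h.

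BobA (brother of Bearded) had 13.0 to 246.4 (median 77.8) at 8 h and 7.75 to 72.2 (median 38.5) at 5 h, a change of 0.88 ± 0.17 (SE, 9 lines; limma adjusted p = 0.0018). The probe set shared with CG13465 gave 0.74 ± 0.14 (adjusted p = 0.0021), so both probe sets moved the same way. The BobA call rested on the scaling. On the deposited scale its change was 0.355 (adjusted p = 0.25) and that of the shared probe set 0.339 (adjusted p = 0.11).

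Ocho, the last gene of this complex, averaged 17.3 ± 9.16 at 8 h and 7.14 ± 2.99 at 5 h (SD, n = 9 lines). Its change was 0.48 ± 0.08 (SE; limma adjusted p = 0.00059), with 9 of 9 lines higher at 8 h.

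In the Enhancer of split complex, E(spl)malpha-BFM ranged from 3.48 to 50.8 (median 23.6) at 8 h and from 0.369 to 17.2 (median 2.40) at 5 h. It exceeded the negative-control limit on each of the 18 arrays taken at 8 h, and on 10 of the 17 taken at 5 h. The mean was 25.6 ± 12.4 at 8 h and 4.70 ± 4.67 at 5 h (SD, n = 9 lines). The change was 0.96 ± 0.11 (SE; limma adjusted p = 1.9e-05).

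E(spl)m4-BFM, a known inhibitor of Neuralized, averaged 28.3 ± 14.0 at 8 h and 8.95 ± 5.87 at 5 h (SD, n = 9 lines), with a change of 0.81 ± 0.12 (SE; limma adjusted p = 0.00022). It was higher at 8 h in 8 of 9 lines, the exception being Drosophila_145. E(spl)m2-BFM averaged 9.09 ± 4.37 at 8 h and 2.48 ± 2.18 at 5 h, with a change of 0.43 ± 0.06 (SE, 9 lines; adjusted p = 0.00013). It passed the limit on 17 of the 18 arrays taken at 8 h but on 6 of the 17 taken at 5 h, so its 5 h level was mostly at background.

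E(spl)m6-BFM was not detectable on nearly all arrays. It exceeded the limit on 0 of the 18 arrays taken at 8 h and 1 of the 17 taken at 5 h, with a change of -0.01 ± 0.02 (SE, 9 lines; limma adjusted p = 0.83). Its neighbours on the chromosome were both called higher at 8 h: E(spl)m5-HLH by 0.93 ± 0.14 (adjusted p = 0.00015) and E(spl)m7-HLH by 0.76 ± 0.10 (adjusted p = 7.1e-05).

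**Figure D1:**
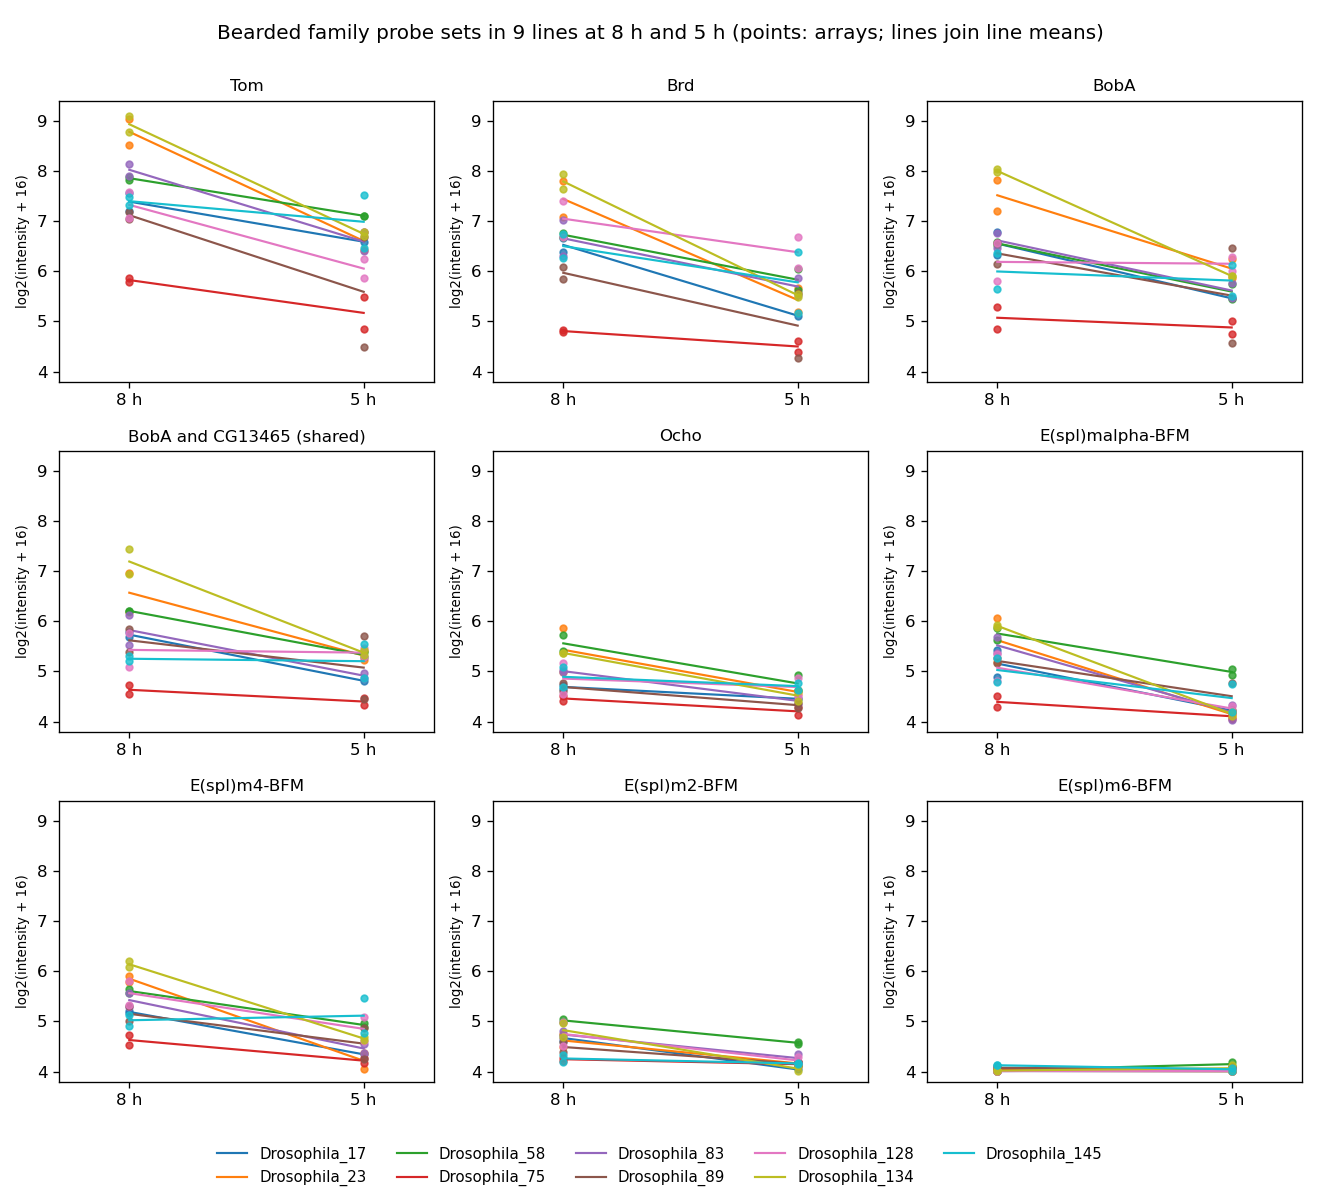
Each panel shows 1 probe set, with log2(quantile normalised intensity + 16) on the y axis and 8 h left of 5 h on the x axis. Points are arrays and lines join the means of each of the 9 fly lines. In 8 of 9 panels nearly all lines slope down to 5 h, line Drosophila_75 is lowest at 8 h in those 8, and E(spl)m6-BFM is flat near the floor.

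Genes that act with the family differed in whether they moved. All 5 of the E(spl) bHLH repressor genes analysed here, which carry out the Notch response by repressing proneural genes, were higher at 8 h, with a median change of 0.68. E(spl)m5-HLH averaged 29.4 ± 16.8 at 8 h and 6.53 ± 4.31 at 5 h (SD, n = 9 lines), and E(spl)mdelta-HLH changed by 0.68. All 5 were also called higher under the other 3 scalings.

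neur, which encodes the ligase that Bearded proteins bind, averaged 12.4 ± 7.18 at 8 h and 13.1 ± 5.97 at 5 h (SD, n = 9 lines). Its change was -0.05 ± 0.08 (SE; limma adjusted p = 0.81). Without scaling 2948 of the 18769 probe sets were called lower at 8 h, neur among them, by -0.26. Dl, N and Su(H) were not analysed here.

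The other Notch pathway lists held a smaller share of calls than the bHLH repressors. For these lists and those that follow, the shares to set beside the counts are those of the same test and scale. On the quantile scale 3.85% of all probe sets were called higher and 3.67% lower, and of the measured ones 9.69% were called higher. On the deposited scale 328 of the 18769 probe sets were called higher and 2948 lower. Of 6 endocytic regulators 2 were called higher and 0 lower: lqf (epsin, needed for Delta endocytosis) by 0.39 and spdo (a Notch trafficking protein) by 0.19. Of 6 processing and glycosylation genes only Psn, the catalytic subunit of gamma-secretase, was called, higher by 0.25. Of 3 nuclear factors gro, the corepressor of the bHLH proteins, was called higher by 0.24, while H stood at -0.09 (adjusted p = 0.65). These calls depended on the scaling: on the deposited scale 0 of these 3 lists' genes were called higher, and 2 endocytic, 1 processing and 1 nuclear gene were called lower.

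Among proneural genes and partners, 2 of 7 were called higher. These were emc, an inhibitor of proneural proteins, by 0.72 and l(1)sc, a proneural gene of neuroblasts, by 0.30. Of 4 dorsal-ventral regulators 0 were called. Among them sna, the repressor of Bearded genes in the mesoderm, averaged 17.6 ± 9.29 at 8 h and 12.1 ± 3.13 at 5 h (SD, n = 9 lines) and had a change of 0.23 (adjusted p = 0.15). On the deposited scale 1 of the 7 proneural genes was called higher, and 2 of the 4 dorsal-ventral regulators were called lower.

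Lists for other tissues and stages moved over the same interval, and their part in the family's change was not tested. Of 6 neuroblast genes 3 were called higher (pros by 0.42, SoxN by 0.42 and wor by 0.38) and 0 lower. Of 4 mesoderm genes 3 were called higher, among them bap and bin, which did not count as measured. These exceeded the negative-control limit on 4 and 2 of the 17 arrays at 5 h. Of 6 amnioserosa and dorsal ectoderm genes 4 were called higher and 1, zen, lower by -0.63. Of 6 maternal transcripts 4 were called lower, and all 7 early zygotic genes were called lower with a median of -2.02. On the deposited scale 1 neuroblast gene was called higher and 1 lower, 2 mesoderm genes higher, 3 amnioserosa genes higher and 1 lower, 5 maternal transcripts lower and all 7 early zygotic genes lower. In whole embryos, fewer cells of a type and less RNA per cell cannot be told apart.

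The second comparison asks how far the family varies between genotypes. Line Drosophila_75 had lower family transcripts than the other 8 lines over both times, and Drosophila_134, Drosophila_58 and Drosophila_23 each had higher levels of some members. In the limma F test over both times, 8 of 9 family probe sets were called, where 19.5% of all probe sets and 51.4% of the measured ones were. At 8 h the count was 8 of 9 against 18.4% of all probe sets (44.2% of the measured), and at 5 h it was 3 of 9 against 7.45% (21.1% of the measured). The 3 at 5 h were Tom, Brd and E(spl)m4-BFM (adjusted p = 0.0034, 0.0071 and 0.013). Which members were called at 5 h depended on the scaling. On the deposited scale Tom (adjusted p = 0.19) and Brd (0.11) were not called, and E(spl)malpha-BFM (0.0019) and E(spl)m2-BFM (0.00021) were, as also with arrays centred on medians. The count of 3 on the quantile scale was 0 without Drosophila_75 and 5 without Drosophila_89 or either of its 5 h arrays. Over both times E(spl)m2-BFM was not called without Drosophila_58 (adjusted p = 0.093), and without both Drosophila_75 and Drosophila_134 the count was 4 at 8 h and over both times. The low level in Drosophila_75 was not particular to the family. The limma F test over both times called all 5 E(spl) bHLH genes, each lowest in Drosophila_75 and highest in Drosophila_58 or Drosophila_134. It also called neur (adjusted p = 8.5e-05), sna (2.5e-05) and gro (0.00024), each highest in Drosophila_134 and lowest in Drosophila_75. Called with Drosophila_75 highest were all 6 maternal transcripts, the dorsal-ventral regulator dl, da, dx, rumi and H.

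Tom spanned 3.11 on the log2 scale between the highest and lowest line at 8 h, and 1.94 at 5 h. The 8 h arrays of Drosophila_75 had 42.3 and 39.2. Those of Drosophila_134 had 530.7 and 424.9, and those of Drosophila_23 had 354.9 and 511.3. The order of line means at 8 h began with Drosophila_134 (477.8) and Drosophila_23 (433.1), whose arrays overlapped. Drosophila_83 (246.2) and Drosophila_58 (216.7) followed, each apart from its neighbours in that order. Drosophila_145, Drosophila_17, Drosophila_128 and Drosophila_89 lay between 153.5 and 123.6 and were not separated, and Drosophila_75 (40.8) was lowest and apart. This order belongs to the quantile scale. On the deposited scale the 8 h arrays of Drosophila_75 (74.1 and 51.95) overlapped those of Drosophila_128 (68.35 and 67.7). Those of Drosophila_134 (222.5 and 105.8) lay below those of Drosophila_58 (280.3 and 258.6).

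Brd at 8 h had 11.6 and 12.4 on the arrays of Drosophila_75, against 41.95 or more on every other 8 h array. Line means of Brd at 8 h ran from 207.5 in Drosophila_134 and 163.6 in Drosophila_23 down to 76.0 in Drosophila_145 with overlapping neighbours. Drosophila_89 (47.0) and then Drosophila_75 (12.02) stood apart below. At 5 h the order differed. Drosophila_128 had the highest mean (69.4), with 51.4 and 87.4 on its arrays, which overlapped those of Drosophila_145 (20.2 and 67.5).

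BobA at 8 h had 23.1 and 13.0 in Drosophila_75, 236 and 246.4 in Drosophila_134, and 131.6 and 212.4 in Drosophila_23. On the quantile scale Drosophila_134 (mean 241.2) and Drosophila_23 (172) stood apart above the rest, and Drosophila_75 (18.06) stood apart below. These separations rested on the scaling. On the deposited scale the 8 h arrays of Drosophila_134 (100.7 and 62.5) overlapped those of Drosophila_58 (86.8 and 75.7). Those of Drosophila_75 (42.6 and 18.5) overlapped those of Drosophila_128 (22.9 and 29.9). At 5 h the lines were not called different for BobA (limma adjusted p = 0.28).

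On the quantile scale E(spl)malpha-BFM, E(spl)m4-BFM and E(spl)m2-BFM also had Drosophila_75 lowest at 8 h. E(spl)malpha-BFM had 3.48 and 6.67 in Drosophila_75, against 43.1 and 45.2 in Drosophila_134. E(spl)m4-BFM had 10.4 and 7.20 in Drosophila_75, against line means of 54.75 in Drosophila_134, 41.89 in Drosophila_23 and 32.81 in Drosophila_58. E(spl)m2-BFM was highest and apart in Drosophila_58 (16.47), while Drosophila_145 (3.195) and Drosophila_75 (2.982) overlapped at the low end. On the deposited scale Drosophila_75 was not lowest for E(spl)m4-BFM (20.2 and 10.3, against 16.5 and 7.23 in Drosophila_145). Nor was it lowest for E(spl)m2-BFM (3.23 and 4.66, against 3.72 and 1.76 in Drosophila_145). Drosophila_134 lay below Drosophila_58 there for E(spl)m4-BFM (26.4 and 16.0, against 36.65 and 30.1) and E(spl)malpha-BFM (21.6 and 12.2, against 35.95 and 40.7).

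Against the other 8 lines, Drosophila_75 was lower in 8 of 9 family probe sets, where 3.53% of all probe sets were called lower in that line. Tom differed by -1.70 ± 0.20 (SE; limma adjusted p = 3.6e-07), Brd by -1.56 ± 0.18 (adjusted p = 2.8e-07) and BobA by -1.27 ± 0.19 (adjusted p = 1.3e-05). E(spl)m4-BFM differed by -0.65 ± 0.11 (adjusted p = 8.2e-05), E(spl)malpha-BFM by -0.64 ± 0.12 (adjusted p = 0.00034) and E(spl)m2-BFM, the smallest, by -0.24 ± 0.07 (adjusted p = 0.02). The 8 probe sets stayed below the other lines in the alternatives run for this contrast. Only 5 were called on the deposited scale, 4 with brightness as a covariate and 2 with the developmental score as a covariate. For contrasts of single lines, the share of all probe sets called under the alternatives was not counted.

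Line Drosophila_134 was higher in 5 of 9 family probe sets (3.63% of all probe sets were called higher in it): BobA by 0.96 ± 0.19, Tom by 0.94 ± 0.20, the shared BobA probe set by 0.93 ± 0.15, Brd by 0.70 ± 0.18 and E(spl)m4-BFM by 0.46 ± 0.11 (SE). Its 8 h arrays had total intensities of 74632 and 46261, and the result rested on the scaling. On the deposited scale 0 were called, and Brd (-0.01) and E(spl)m4-BFM (-0.03) turned to the other side of 0. The count was 3 without Drosophila_75 or without the second 8 h array of Drosophila_134.

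Line Drosophila_58 was higher in 3 of 9 (5.1% of all probe sets): E(spl)malpha-BFM by 0.63 ± 0.12, Ocho by 0.46 ± 0.11 and E(spl)m2-BFM by 0.43 ± 0.07 (SE). At 5 h E(spl)malpha-BFM had 17.2 and 14.4 on its arrays, against at most 11.4 on the 5 h arrays of other lines. E(spl)m2-BFM had 7.46 and 8.17 there, against at most 4.46. Tom and BobA were higher in Drosophila_23 (0.815% of all probe sets), by 0.78 and 0.77 (limma adjusted p = 0.047 and 0.033). The shared BobA probe set was not called there (0.071). Brd was higher in Drosophila_128 by 0.77 (1.76%; adjusted p = 0.016). Tom and Brd were lower in Drosophila_89 (1.37%), by -0.73 and -0.67 (adjusted p = 0.034 and 0.032). The contrasts of Drosophila_58, Drosophila_23, Drosophila_128 and Drosophila_89 were not run under the alternatives. No member was called in Drosophila_17, Drosophila_83 or Drosophila_145, where 0.938%, 0.794% and 2.67% of all probe sets were called in either direction.

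The Drosophila_89 value rests on arrays that disagree. At 5 h its samples gave 87.4 and 6.51 for Tom, 31.3 and 3.3 for Brd, and 72.2 and 7.75 for BobA, while their total intensities were 261232 and 309710. The developmental scores of these samples, defined below, were -0.756 and -1.324, and over the measured probe sets they correlated with r of 0.963. The part of the score in their disagreement was not tested.

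**Figure D2:**
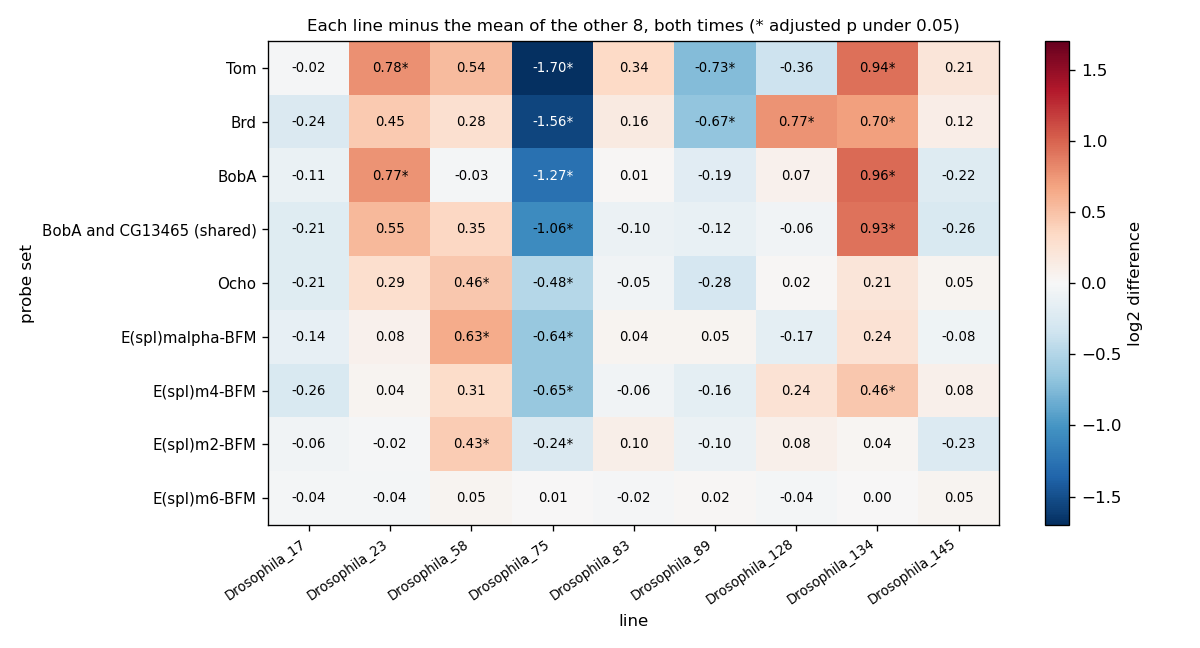
Cells give the log2 difference of each line (columns) from the mean of the other 8 over both times, for each family probe set (rows), with an asterisk where the limma adjusted p was under 0.05. The column of Drosophila_75 is lower with an asterisk in 8 of 9 rows, and Drosophila_134 is higher with an asterisk in 5.

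Measures of stage and brightness moved with the lines. A developmental score was computed for each array from the 200 probe sets with the strongest increase by 8 h in the other lines, less the 200 with the strongest decrease, with the family left out. The 8 h arrays of Drosophila_75 scored -1.01 and -0.505, and those of Drosophila_134 scored 1.17 and 1.01. The maternal transcripts summed to 513.9 at 8 h in Drosophila_75, the highest line, and to 88 in Drosophila_134, the lowest. The neuroblast genes summed to 19.1 at 8 h in Drosophila_75, the lowest, and to 186.8 in Drosophila_134, the highest. At 5 h the maternal sum was likewise highest in Drosophila_75 (572.9) and lowest in Drosophila_134 (146.3). The neuroblast sum at 5 h was lowest in Drosophila_75 (20.65) but highest in Drosophila_128 (195.3). Such sums weigh the brightest genes most, here dhd (mean 81.3 at 8 h) and mira (57.9). mira itself changed by 0.002 from 5 h to 8 h. The early zygotic genes, which also fell from 5 h to 8 h, did not order the lines as the maternal transcripts did. At 8 h their sum was 31.5 in Drosophila_75 and 25.9 in Drosophila_134, and highest in Drosophila_145 (148.2). At 5 h it was 146.7 in Drosophila_75 and highest in Drosophila_134 (1382).

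Across the 9 lines, the genes' means over both times correlated with the developmental score at r of 0.548 to 0.866 and rho of 0.7 to 0.9. After Benjamini-Hochberg adjustment over 14 relations, 4 of 7 genes had an exact permutation p under the threshold by r (lowest adjusted p = 0.014, two-sided). By rho 1 passed, E(spl)m2-BFM. Without the 2 lines farthest from the median score 0 passed by r, where r was 0.538 to 0.684. The share of genes outside the family that would pass was not computed. With log2 total intensity r was -0.775 to 0.022, and Brd alone passed by r (-0.775, exact permutation adjusted p = 0.038). Brd did not pass by rho (-0.633, exact permutation adjusted p = 0.13) or without Drosophila_75 and Drosophila_134 (r = -0.562, adjusted p = 0.33). With the developmental score as a covariate, 5 of 9 family probe sets were called among lines over both times, and 2849 of all 18769. Ocho (adjusted p = 0.052), E(spl)malpha-BFM (0.25) and E(spl)m2-BFM (0.066) were then not called. Score, brightness and line cannot be told apart with 2 arrays for each line and time.

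**Figure D3:**
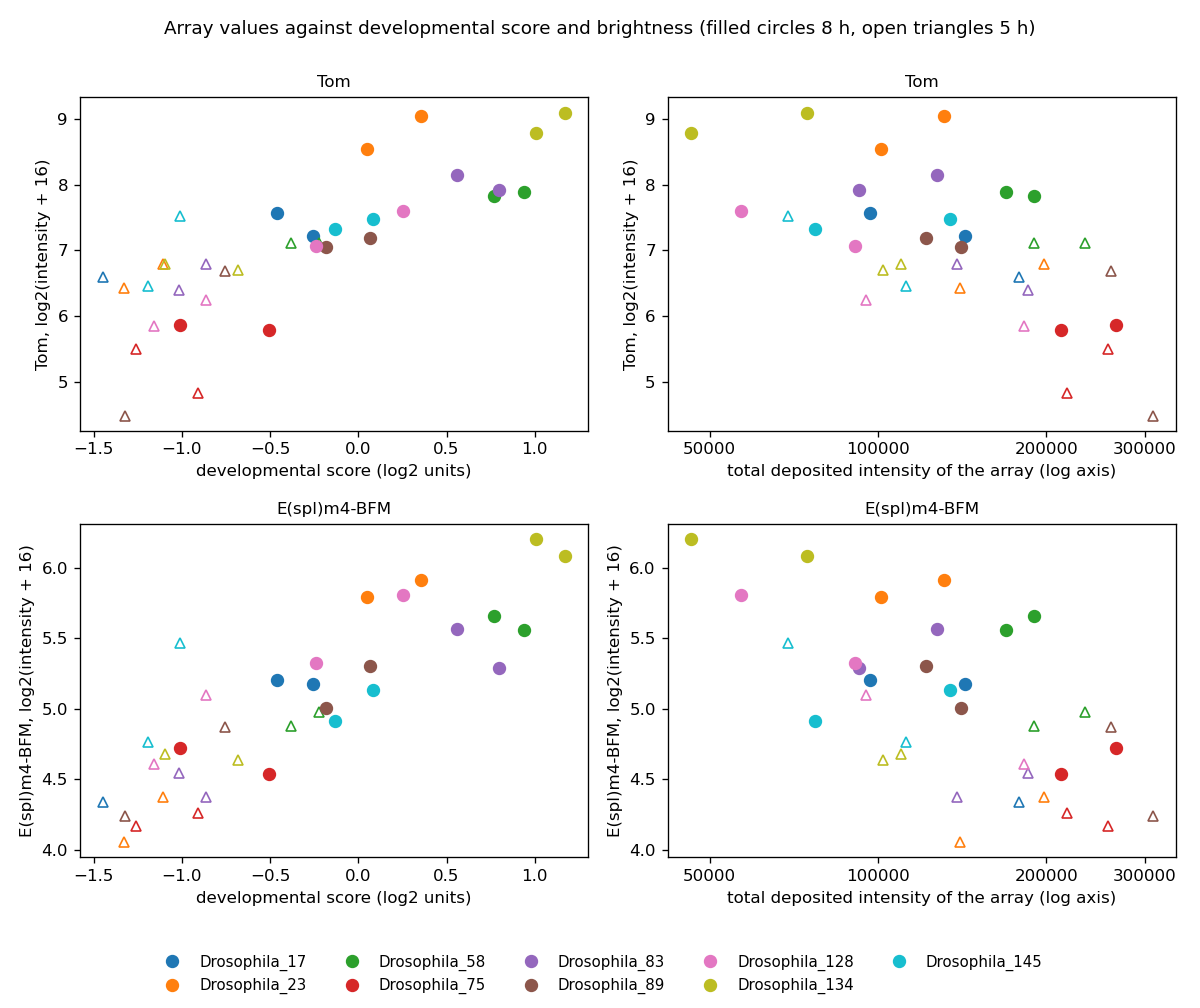
Array values of Tom (top) and E(spl)m4-BFM (bottom), as log2(intensity + 16), against the developmental score in log2 units (left) and the total deposited intensity on a log axis (right). Filled circles are 8 h and open triangles 5 h, coloured by line. Drosophila_134 at 8 h has the highest scores (1.17 and 1.01) and high values, and both 8 h arrays of Drosophila_75 are among the brightest (266525 and 212329) with low values.

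The third comparison asks whether the change from 5 h to 8 h differed between lines. E(spl)m4-BFM was the 1 family probe set of 9 called in the test of line by time (adjusted p = 0.011), where 1.37% of all probe sets and 3.48% of the measured ones were called. In Drosophila_23 it had 39.35 and 44.4 at 8 h against 0.605 and 4.78 at 5 h. In Drosophila_134 it had 51.8 and 57.7 at 8 h against 8.89 and 9.65 at 5 h. In Drosophila_145 it had 19.1 and 14.2 at 8 h against 11.1 and 28.3 at 5 h, with overlap. The change was 1.64 in Drosophila_23 (adjusted p = 2.6e-06), 1.48 in Drosophila_134 (8.9e-06) and -0.09 ± 0.21 (SE) in Drosophila_145 (0.94). The call was lost without Drosophila_23 (adjusted p = 0.078) or Drosophila_134 (0.055), and on the deposited scale (0.29).

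For the other members the test of line by time gave adjusted p of 0.065 for E(spl)malpha-BFM, 0.14 for Brd and BobA, 0.24 for Tom, 0.25 for E(spl)m2-BFM and 0.45 for Ocho. Several of these rested on Drosophila_89. Without that line BobA (adjusted p = 0.0092), the shared BobA probe set (0.011), Tom (0.015), E(spl)malpha-BFM (0.045) and Brd (0.046) were called beside E(spl)m4-BFM. E(spl)malpha-BFM was called in 11 of the 44 fits that left out 1 array or 1 line. Of the E(spl) bHLH genes 3 of 5 were called: E(spl)mbeta-HLH (0.0077), E(spl)m5-HLH (0.031) and E(spl)mdelta-HLH (0.043).

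Within single lines, 8 of 9 family probe sets were higher at 8 h in Drosophila_23 (2.43% of all probe sets) and in Drosophila_134 (4.09%). In Drosophila_83 it was 4 of 9 (1.55%), led by Tom at 1.43 and E(spl)malpha-BFM at 1.34. In Drosophila_58 only Ocho was called (0.80; 1.03%), in Drosophila_89 Tom (1.53; 0.501%) and in Drosophila_128 E(spl)m2-BFM (0.53; 0.559%). No member was called in Drosophila_75, Drosophila_145 or Drosophila_17, the last with 1 array at 5 h. Of all probe sets 0.00533%, 1.7% and 0.197% were called in these lines in either direction. On the deposited scale the counts were 3 in Drosophila_23 and 0 in Drosophila_134, with all 8 values above 0 in both lines. The Drosophila_23 count was 4 without its first 5 h array or its second 8 h array. Tom changed by 2.19 in Drosophila_134, 2.18 in Drosophila_23 and 0.66 in Drosophila_75. That these differ was not shown by the test of line by time for Tom.

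**Figure D4:**
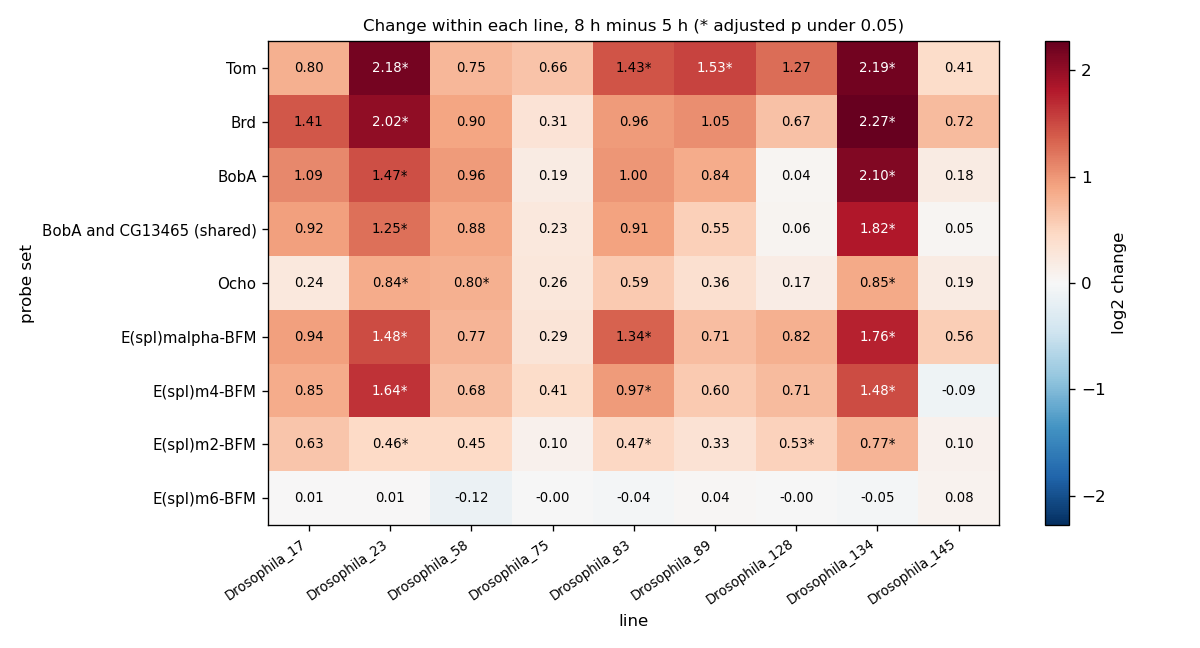
Cells give the log2 change, 8 h minus 5 h, within each line (columns) for each family probe set (rows), with an asterisk where the limma adjusted p was under 0.05. Drosophila_23 and Drosophila_134 have asterisks in 8 of 9 rows and Drosophila_75 in 0.

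The last comparison asks whether the members order the lines alike. Over 21 pairs of the 7 measured genes, using 9 line means over both times, Pearson r ran from 0.38 to 0.913 (median 0.793) and Spearman rho from 0.383 to 0.883. Two-sided exact permutation tests, adjusted over the 21 pairs, gave 15 pairs under 0.05 by r (lowest adjusted p = 0.014) and 4 by rho. The share among pairs of other genes was not computed, so these counts do not set the family apart. Without the 2 lines farthest from the median of the first gene, always including Drosophila_75, r ran from 0.065 to 0.813 and 0 of 21 pairs passed (lowest adjusted p = 0.46). The median r was 0.45 over the 7 lines left, against 0.793 over 9 lines. How far r fell differed between pairs.

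Brd and E(spl)m4-BFM, on different chromosome arms, had the highest r, 0.913 over 9 lines and 0.813 over 7. For Tom and BobA it was 0.882 and 0.73, whereas for Brd and Tom it was 0.842 and 0.203. Pairs within the Bearded complex had a median r of 0.845 over 6 pairs, pairs within the Enhancer of split complex 0.776 over 3, and pairs across the complexes 0.742 over 12. At 8 h r was 0.603 to 0.958, and at 5 h it was 0.009 to 0.85.

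**Figure D5:**
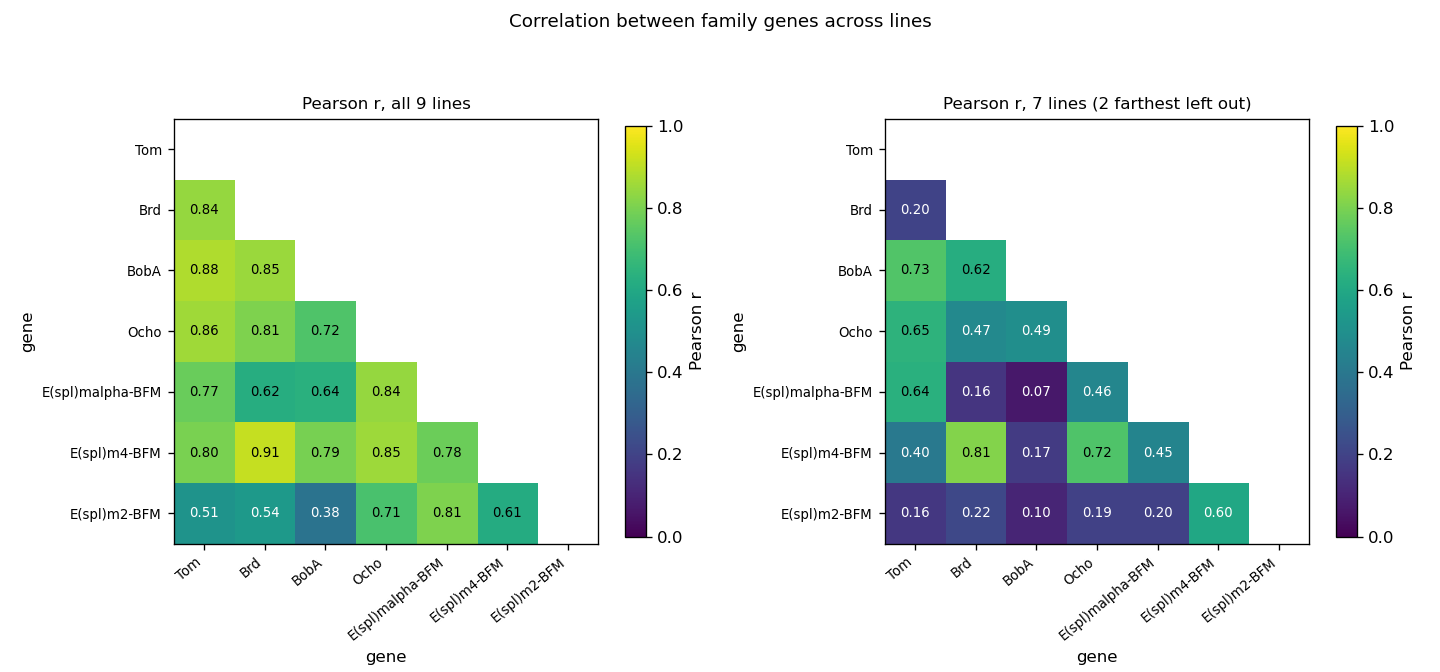
Pearson r between pairs of family genes across lines (line means over both times), for all 9 lines on the left and for the 7 left after leaving out the 2 farthest from the median on the right. The colour runs from 0 to 1. All 21 values on the left are 0.38 or higher, and on the right they fall as low as 0.065.

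Some genes outside the family followed members closely over the 18 means of line and time, given as a description, since the means share arrays, brightness and stage. Among 3732 candidate genes, E(spl)m7-HLH was most like E(spl)malpha-BFM (r = 0.965) and E(spl)m5-HLH most like E(spl)m4-BFM (0.965). E(spl)mbeta-HLH was second for E(spl)m2-BFM (0.92), after bsk (0.922), the Jun kinase. For the Bearded complex the first were ci (the Hedgehog effector) for Brd (0.959), klar (a nuclear positioning protein) for Tom (0.94), Cad74A (a cadherin) for BobA (0.933) and edl (an Ets antagonist) for Ocho (0.949). sna was among the first 3 for BobA (0.918), and comm, which sorts the Robo receptor, was among the first 3 for both Ocho (0.948) and E(spl)malpha-BFM (0.952).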

How the data were processed

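The authors deposited linear array intensities for 36 arrays of 18952 probe sets. What software made them, and with what scaling, is not given in the sources used here. Control probe sets (183) were removed, leaving 18769, with 13647 named by 1 symbol, 402 by several and 4720 unnamed here. Probe sets were named by the platform annotation and symbols brought up to date by RefSeq (Release 6 plus ISO1 MT).

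Intensities were quantile normalised over the 36 arrays and taken as log2(intensity + 16). A probe set is called measured above the 99th percentile of 49 negative controls, recognised by name, on at least 18 arrays. Fits used limma 3.58.1 in R 4.3.3 (trended prior variance, Benjamini-Hochberg over 18769, threshold 0.05) and were tested on simulated data. Time was tested on 18 means of line and time with line as a block. Lines were tested in a fit with a mean for each line and time. The number of arrays limits the precision.

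All members were named. From other lists, up to 4 genes that passed the test of time or of lines were named, largest changes first, with neur, Dl, N, Su(H), H and sna in any case. For likeness, the 3 measured genes of highest Pearson r outside the family, named by 1 symbol that is no CG or CR number, were ranked for each member. The members, lists and tests were chosen with earlier results of these data known. Alternatives changed the scaling, pseudocount, filter, prior variance, brightness, pairing and the arrays or lines used. Those with the developmental score, without lines Drosophila_75 and Drosophila_134, and for single lines were chosen after seeing the data.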

Additional observations from a re-analysis of the deposited data

Results flagged for a closer look

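Among the 9 line means of each probe set at each time, 18 groups were examined for a line far from the rest, and 3 had one, all at 5 h and all with Drosophila_58 highest. The gap to the nearest line as a share of the whole range was 0.548 for E(spl)malpha-BFM, 0.574 for E(spl)m2-BFM and 0.573 for E(spl)m6-BFM, in each case above Dixon's critical value for 9 values. Chance alone gives about 0.05 of groups such a gap, and the groups share their arrays. E(spl)m6-BFM was above the negative-control limit on 1 of 17 arrays at 5 h, so its value describes background. At 5 h the developmental scores of Drosophila_58 were -0.381 and -0.225, the highest of the 17 arrays, and their part in these values was not tested.

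For E(spl)m4-BFM the change from 5 h to 8 h differed between lines in the limma test of line by time, with an adjusted p of 0.011.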

How the results depend on the processing

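The 8 family probe sets called for 8 h against 5 h were called in all 44 fits that left out 1 array or 1 line. They were also called under each other alternative except the deposited scale and arrays centred on medians, where 6 were called. None of the called members reversed in that test. Over all probe sets the 1411 calls (723 higher, 688 lower) became 3276 on the deposited scale (328 higher, 2948 lower), 3275 with arrays centred on medians (401 and 2874), 1896 at a common 90th percentile (1357 and 539) and 2249 with the array as the unit. They ranged from 917 (without Drosophila_83) to 1587 when an array or a line was left out. Lines over both times: 3661 calls became 6259 on the deposited scale, 6053 with centred medians, 2342 with brightness as a covariate and 2375 without lines Drosophila_75 and Drosophila_134, and ranged from 2527 to 4118 with an array or line left out. The family count of 8 became 5 with the developmental score, where 2849 of all probe sets were called. It became 4 without both lines, with 7 to 8 in the leave-out fits. At 5 h 1399 calls became 4418, 4222, 475 and 698 under the same 4 settings (971 to 1658 in leave-out fits). The family count of 3 became 5 with a pseudocount of 4, 1 with a pseudocount of 64 or without a trended prior, and 0 with brightness or without both lines. It was 0 without Drosophila_75 and 5 without Drosophila_89 or either of its 5 h arrays. At 8 h 3447 calls became 2231 with the developmental score and 2218 without both lines (2373 to 4023 in leave-out fits). The family count of 8 became 6 with the score and 4 without both lines. Line by time: 257 calls became 152 on the deposited scale, 153 with a pseudocount of 4, 413 among measured probe sets and 83 without both lines (118 to 454 in leave-out fits). The family count of 1 became 0 on the deposited scale, with centred medians, with the score or without both lines, 4 with a pseudocount of 64 and 3 among measured probe sets, and was 0 without Drosophila_23 or Drosophila_134 and 6 without Drosophila_89. The family count lower in Drosophila_75 (8) became 5 with either of the deposited scale and centred medians, 4 with brightness and 2 with the score (7 to 8 in leave-out fits). That higher in Drosophila_134 (5) became 0 in these 4 settings, and was 3 without Drosophila_75 or without the second 8 h array of Drosophila_134. Within Drosophila_23 the count of 8 became 3, 3 and, with the score, 0, and was 4 without its first 5 h array or its second 8 h array. Within Drosophila_134 it became 0 on the deposited scale, 1 with centred medians and 0 with the score (7 to 8 in leave-out fits). The score was built from the 8 h and 5 h difference, so within a line it stands for time. Otherwise the cause was not tested. The 15 pairs of members past the threshold became 0 without 2 lines.

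The sample letters did not pair the arrays: deviations of same-lettered arrays correlated from -0.389 to 0.279 over 8 lines, with 3 over 0.1. With a replicate block the calls were 2036 for time and 3673 for lines over both times, with 8 family probe sets in each. E(spl)malpha-BFM, E(spl)m2-BFM and E(spl)m6-BFM exceeded the negative-control limit on only 10, 6 and 1 of the 17 arrays at 5 h. This limits what those arrays can show for them.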

Other observations

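The array at 5 h whose title names no line entered no comparison. It had 60.9 for Tom, 25.0 for Brd, 41.2 for BobA, 6.50 for Ocho, 2.92 for E(spl)malpha-BFM, 4.30 for E(spl)m4-BFM, 3.01 for E(spl)m2-BFM and 0.972 for E(spl)m6-BFM, with a total intensity of 104042. Each value lay within the range of the 17 arrays at 5 h with a named line.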
